A study of Mus musculus with 6 samples.

Results

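The transcripts described here are those of the genes for translation initiation factors (eIF) and elongation factors (eEF). They were chosen as the contigs whose mouse gene symbol in the deposited tail table starts with Eif or Eef, with no regard to case. This gave 108 of the 12114 contigs of the data, from 53 of the 6985 gene symbols, and 36 of these genes had 1 contig and 17 had more. Of the 108, 95 are annotated as protein coding, 7 as retained introns, 3 as processed transcripts and 3 as targets of nonsense-mediated decay. The cells came from the testes of adult wild-type C57BL/6J mice and were sorted by flow cytometry on Hoechst staining and light scatter, with dead cells left out by propidium iodide, into P/D spermatocytes (pachytene and diplotene cells, which the labels call pachytene spermatocytes) and RS (round spermatids, the haploid cells that follow meiosis). There were 3 samples of each cell type, and each sample pooled the mRNA of 3 mice. Native poly(A) RNA was read from its 3′ end through nanopores, so each read is 1 molecule with its own tail. The 3 P/D samples were sequenced as 1 barcoded library and the 3 RS samples as another, and the effects of the cell type and of the library cannot be told apart.

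Initiation factors bring the initiator tRNA and the small ribosomal subunit to the mRNA and to its start codon, and elongation factors then deliver aminoacyl-tRNAs and move the ribosome. eIF4F binds the cap, and its scaffold eIF4G also binds poly(A)-binding protein, which links the tail of an mRNA to its start. Male germ cells are known for storing mRNAs in repressed particles and translating them later, and for testis forms of several factors. Many elongation factor mRNAs and some initiation factor mRNAs belong to the TOP mRNAs, whose terminal oligopyrimidine start lets the cell control their translation together.

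The samples held between 244004 and 474688 reads, of which between 3574 and 5448 lay on the factor contigs. Genes listed as markers of P/D spermatocytes ranged from 0.347% to 0.381% of the reads in a P/D sample and between 0.249% and 0.282% of an RS sample, and genes listed for RS had between 0.0829% and 0.101% and between 0.332% and 0.356%. Of the 9 genes of the first list 5 were lower in RS and 3 were higher (Spag6, Nme8 and Tbpl1), and 8 of the 9 genes of the other list were higher. Genes listed for elongating spermatids also moved with the cell type, from between 0.174% and 0.236% to between 2.25% and 2.76%. The 6 spermatogonia, 7 Sertoli, 6 Leydig and 7 peritubular and blood genes took at most 0.00258% of the reads for any list and sample, and the last list was at 0. The study describes the P/D gate as much less pure than the RS gate. By its microscopy, a large part of the cells in the P/D gate were not P/D spermatocytes. The part of other germ cells in the values below was not tested, and in sorted bulk samples fewer cells of a type and less RNA per cell cannot be told apart.

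Factor mRNAs made up less of the RS transcriptome and carried longer tails there. Their share of all reads was 1.46%, 1.47% and 1.48% in P/D replicates 1, 2 and 3 and 1.16%, 1.15% and 1.14% in RS replicates 1, 2 and 3. The groups did not overlap, and the difference was -0.321 percentage points (exact permutation test, two-sided, p = 0.1, which is the lowest possible with 3 samples against 3). Eef1a1, the gene of the elongation factor that carries aminoacyl-tRNA to the ribosome, had the most reads of any member, and without it the difference was -0.204 points. Tails of 120 to 210 nt made up 29.3%, 28.8% and 26.5% of the factor reads in P/D spermatocytes and 70.8%, 69.5% and 71.0% in RS. Every RS sample lay above every P/D sample, by 42.3 points on average (exact permutation, p = 0.1). Reads on all other annotated transcripts went from 29.6% ± 0.934 to 67.4% ± 0.997 (SD, n = 3) by the same measure. Median factor tails were 92.6, 89.1 and 88.4 nt in P/D spermatocytes and 163, 162 and 166 nt in RS. The 10th percentile of the RS samples was 91.2 nt or more, close to the P/D medians.

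By gene, 46 of the 53 had enough reads for a test of tail length, and 35 of them had longer mean tails in RS (limma, Benjamini-Hochberg adjusted p below 0.05 over all genes). Among all 5380 genes tested, 55% were longer and 2.14% shorter in RS. The median difference was 52.3 nt over the factor genes and 35.0 nt over all genes. None of the factor genes passed as shorter, and 0 did at an unadjusted limma p below 0.05, while 5 had a lower mean in RS. By transcript, 51 of 69 tested members were longer and 0 shorter, also 0 at an unadjusted limma p below 0.05 and 0 by the methods' t-test, against 54.2% and 1.69% of all 6990 transcripts. Accumulation, the TMM-normalized count, was tested with edgeR's quasi-likelihood test in 45 genes, and 11 were higher and 19 lower in RS. Of all 4946 genes tested, 34.7% were higher and 31.2% lower. By transcript, 9 of 62 tested members were higher and 24 lower, beside 32.6% and 30.8% of all 6005. The median log2 fold change was -0.25 over the factor genes and 0.01 over all genes. The 7 genes without a tail test had between 3 and 46 reads over all samples and were Eif4ebp1, Eif2ak1, Eif3j2, Eif5a2, Eef2kmt, Eif1ad2 and Eif1ad6. Tails of 1 gene varied widely between the reads of a sample. Among the 30 genes with at least 20 reads in every sample, the SD over reads lay between 28.2 and 87.2 nt.

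**Figure D1:**
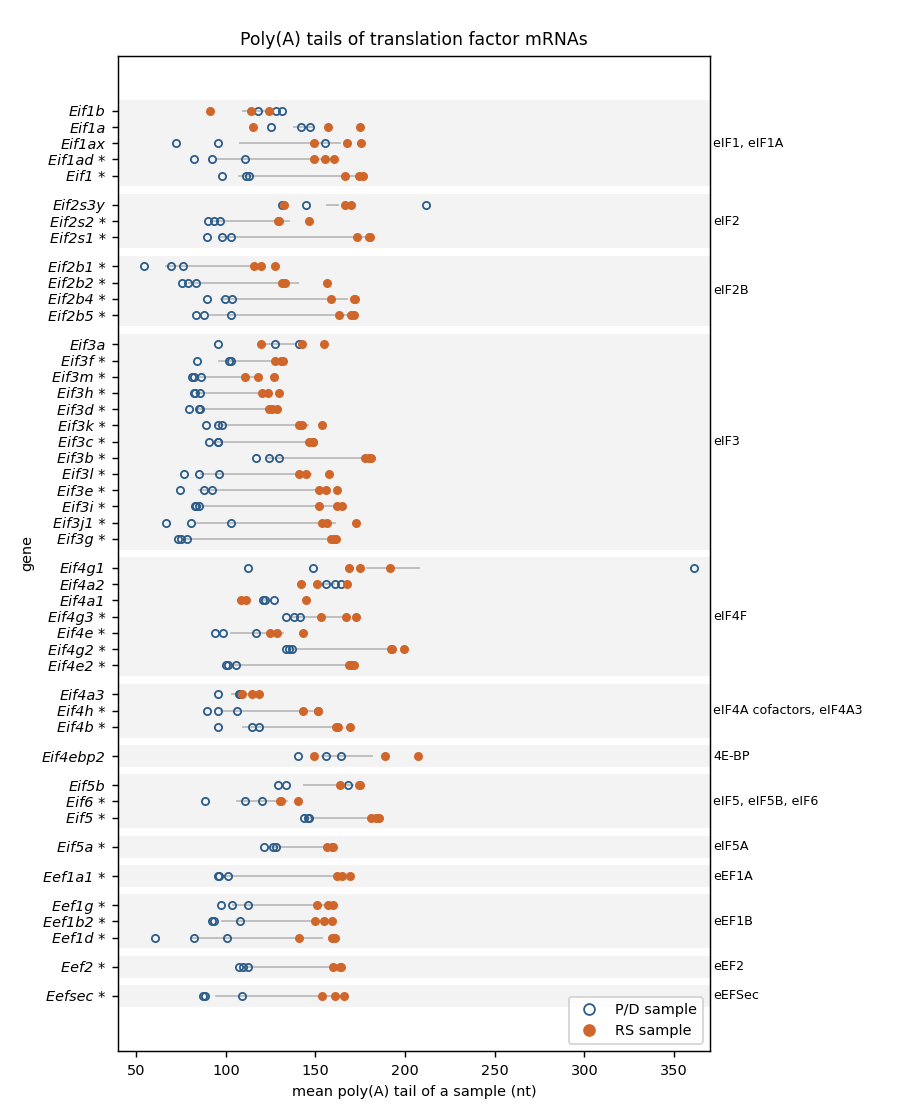
Mean poly(A) tail in nt of each of the 46 tested factor genes in the 3 P/D samples (open circles) and the 3 RS samples (filled circles), grouped by complex, with a grey line between the 2 group means and an asterisk for an adjusted p below 0.05. Of the 46 genes 35 carry an asterisk, all for longer tails in RS, beside 55% of all 5380 genes tested. Eif1b, Eif4a1, Eif4a2 and Eif4a3 are among the genes whose difference of means was not called. The open circle of Eif4g1 at the far right rests on 1 read.

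eIF1 and eIF1A scan for the start codon with the small subunit, and in this group the paralogues parted. Eif1 (chromosome 11 of GRCm38, 100319885 to 100322096 for its main transcript, forward strand, 4 exons) encodes the factor that holds the ribosome open until the start codon is found. It had mean tails of 113, 111 and 97.7 nt in P/D spermatocytes and 174, 167 and 176 nt in RS. The samples did not overlap, and the gain was 65.1 nt (standard error 6.38, limma adjusted p = 0.000375). Its level was 1156, 830.2 and 1009.9 CPM (the reads of the gene scaled to the depth of its sample) in P/D spermatocytes and 1295, 1222 and 1393 CPM in RS, a log2 fold change of 0.49 (standard error 0.11, edgeR adjusted p = 0.000104). Eif1b, a close paralogue on chromosome 9 (120492491 to 120495330, forward strand, 4 exons), had tails of 131, 128 and 118 nt in P/D spermatocytes and 124, 91.1 and 114 nt in RS. Its RS samples overlapped the P/D range, and the difference of -16.0 nt did not pass (standard error 9.62, limma adjusted p = 0.206). Its level was 569.7, 425 and 479 CPM in P/D spermatocytes and 133, 149.6 and 152 CPM in RS. That was a log2 fold change of -1.65 (standard error 0.16, edgeR adjusted p = 7.01e-12), with no overlap between the groups.

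Within each sample, the mean Eif1b tail was longer than the Eif1 tail by 18.2, 16.7 and 20.2 nt in P/D spermatocytes and shorter in RS, with differences of -50.5, -75.6 and -62.2 nt. Eif1b gave 33.0%, 33.9% and 32.2% of the reads of both genes in P/D spermatocytes and 9.29%, 10.9% and 9.82% in RS. Both measures separated the cell types without overlap (two-sided exact permutation tests, p = 0.1 each, 0.122 after Benjamini-Hochberg adjustment over the 11 paralogue comparisons made). Tails of 120 to 210 nt made up 35.6%, 36.1% and 28.2% of Eif1 reads in P/D spermatocytes and 79.1%, 80.5% and 76.9% in RS. For Eif1b the shares were 41.7%, 38.5% and 33.8% in P/D spermatocytes and 47.6%, 29.6% and 38.9% in RS, and the groups overlapped.

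**Figure D2:**
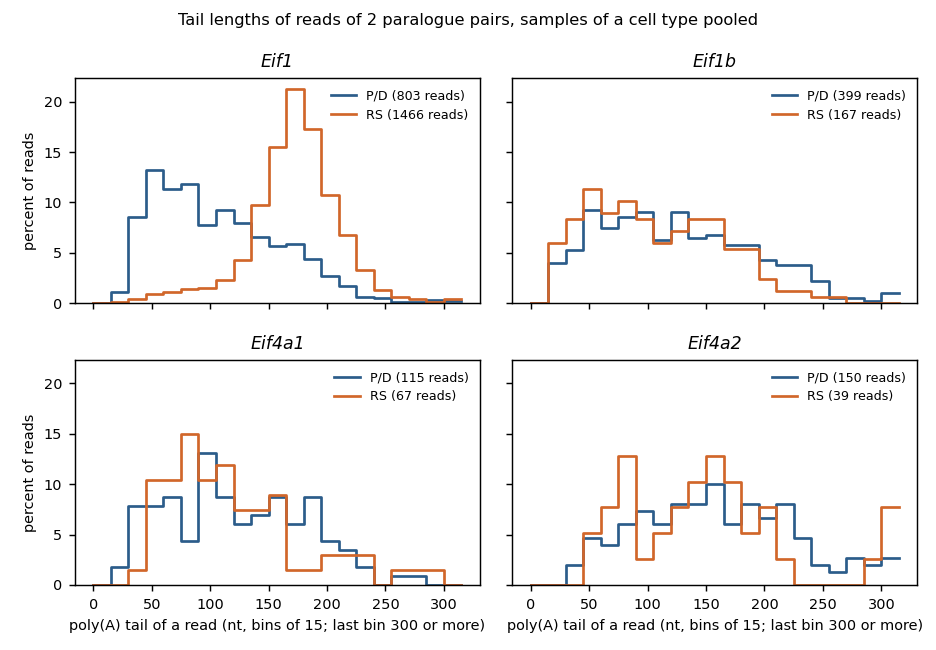
Distribution of tail lengths over distinct reads in bins of 15 nt, with the 3 samples of a cell type pooled, as a percentage of the reads of each gene and cell type. Eif1 moves as a whole to longer tails in RS, while the RS curves of Eif1b, Eif4a1 and Eif4a2 overlap the P/D curves over most of their range.

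Eif1a and Eif1ax, the autosomal and the X-linked genes of eIF1A, also differed in their proportion. Eif1ax had 1, 1 and 3 reads in P/D spermatocytes and 13, 36 and 25 in RS, a log2 fold change of 3.42 (standard error 0.49, edgeR adjusted p = 8.08e-08). Eif1a had 14, 12 and 18 reads and 14, 20 and 11 reads, with no call (log2 fold change -0.35, adjusted p = 0.342). Eif1a therefore gave 93.3%, 92.3% and 85.7% of the reads of the pair in P/D spermatocytes and 51.9%, 35.7% and 30.6% in RS (exact permutation p = 0.1, adjusted 0.122). The difference of the Eif1ax tails, 56.2 nt, was not called (limma adjusted p = 0.068), and it was called without P/D replicate 1 (80.0 nt, 0.00298). The P/D means rest on those few reads. Eif1a was not called for tails (11.2 nt, adjusted p = 0.582). Its contig with the farther 3′ end, ENSMUST00000078079, had tails of 125, 142 and 159 nt in P/D spermatocytes and 85.1, 141 and 107 nt in RS, from between 4 and 13 reads a sample. That difference of -30.7 nt was not called (limma adjusted p = 0.16), and it passed as shorter with medians in place of means (-58.6 nt, 0.00293), with tails of 10 to 300 nt only (-38.7 nt, 0.0317) and without RS replicate 2 (-45.9 nt, 0.033). Eif1ad, an eIF1A domain gene, gained 59.7 nt (limma adjusted p = 0.0015) with a log2 fold change of -0.30 (adjusted p = 0.289).

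eIF2 carries the initiator tRNA to the ribosome, and its 2 autosomal subunit genes measured here had longer tails and a lower level in RS. Eif2s1, the alpha subunit whose phosphorylation shuts down initiation under stress (chromosome 12, 78861819 to 78887010, forward strand, 8 exons), had tails of 89.7, 103 and 97.8 nt in P/D spermatocytes and 179.96, 181 and 173 nt in RS. All RS samples were far above the P/D samples, and the gain of 81.0 nt (standard error 5.79, limma adjusted p = 0.000248) was among the 5 largest of members with at least 20 reads in every sample. Its level was 295, 395 and 324 CPM against 221, 189.6 and 202 CPM, a log2 fold change of -0.64 (standard error 0.16, edgeR adjusted p = 0.000435). Eif2s2, the beta subunit, went from tails of 89.8, 93.2 and 96.9 nt to 129, 129 and 147 nt, a gain of 41.8 nt (standard error 6.65, adjusted p = 0.00232), with a log2 fold change of -0.60 (adjusted p = 0.00203). With a further contig of the gene that has no symbol in the deposited table, the log2 fold change was -0.40 (adjusted p = 0.0241). The Y-linked gamma subunit gene Eif2s3y had 4, 1 and 1 reads in P/D spermatocytes and 15, 31 and 14 in RS (log2 fold change 2.87, standard error 0.48, edgeR adjusted p = 2.08e-06). Its tails were not called (-6.16 nt, limma adjusted p = 0.839), and its P/D means rest on those few reads.

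All 4 tested genes of eIF2B, the exchange factor that reloads eIF2 with GTP, had longer tails in RS, with a median gain of 65.4 nt, and 2 of them were lower. Of all genes tested, 55% had longer tails and 31.2% were lower. Tails of 120 to 210 nt went from 17.6% ± 3.78 to 77.0% ± 4.90 of the reads of the complex (SD, n = 3), the widest change of the complexes compared. Eif2b1, the alpha subunit (chromosome 5, 124570213 to 124579131, reverse strand, 9 exons), had the largest fall in accumulation of all members. It had 22, 26 and 28 reads in P/D spermatocytes and 2, 5 and 2 in RS, or 90.2, 85.0 and 103 CPM against 6.32, 10.5 and 5.62 CPM. The log2 fold change was -3.40 (standard error 0.39, edgeR adjusted p = 6.3e-10). The few RS reads had tails of 116, 119.8 and 128 nt, above the P/D means of 76.1, 54.4 and 69.4 nt, which were the shortest of the tested genes in P/D spermatocytes (difference 54.4 nt, standard error 7.41, limma adjusted p = 0.00124). Eif2b5, the catalytic epsilon subunit, went from 115, 163 and 166 CPM to 63.2, 31.6 and 22.5 CPM (log2 fold change -1.88, standard error 0.28, adjusted p = 1.83e-07). Its tails went from 103, 87.6 and 83.6 nt to 171.5, 169.8 and 163 nt, again without overlap (gain 76.7 nt, adjusted p = 0.000301). Eif2b4 and Eif2b2 were not called for accumulation (log2 fold changes -0.20 and 0.01, adjusted p = 0.422 and 0.977), and their tails gained 69.9 and 61.0 nt (adjusted p = 0.000336 and 0.00118). Tails of 120 to 210 nt made up 20.1% ± 2.18 of the P/D reads of Eif2b4 and 88.6% ± 1.21 of its RS reads (SD, n = 3).

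eIF3 is the large scaffold that joins the small subunit to the other factors, and nearly all of its genes had longer tails in RS. On average 19.9% of its P/D reads and 64.8% of its RS reads had tails of 120 to 210 nt. Of its 13 tested genes, 12 had longer tails in RS, with a median gain of 54.0 nt, and the one not called was Eif3a (17.7 nt, limma adjusted p = 0.339), which had between 3 and 30 reads a sample. Among all genes tested, 55% had longer tails. The largest gain of any factor gene was that of Eif3g, an RNA-binding subunit (chromosome 9, 20894349 to 20898623, reverse strand, 11 exons), from 78.1, 74.8 and 73.1 nt to 161, 160.2 and 159 nt. Replicates lay within a few nt of each other, and the difference was 84.8 nt (standard error 4.62, limma adjusted p = 0.000248). Eif3i, a WD-repeat subunit of the same module, went from 83.6, 82.7 and 85.0 nt to 162, 165 and 152 nt (75.7 nt, adjusted p = 0.000248), and Eif3e from 87.8, 92.5 and 74.5 nt to 152, 156 and 162 nt (71.6 nt, adjusted p = 0.000337). The smallest called gains of the complex were those of Eif3f, with 84.0, 102 and 103 nt against 131, 127 and 132 nt (33.8 nt, adjusted p = 0.00602), and Eif3m (35.4 nt, adjusted p = 0.00302). The RS tails of the complex were not alike: Eif3b reached 181, 179.8 and 178 nt, while Eif3m stood at 111, 118 and 127 nt and Eif3h at 120.2, 124 and 129.7 nt, with no overlap between Eif3b and either.

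Accumulation was less uniform within eIF3, with 5 of 12 tested genes lower, 2 higher and 5 not called, and a median log2 fold change of -0.21. Over all genes tested, 31.2% were lower and 34.7% higher. Eif3i fell from 283, 209 and 247 CPM to 139, 103 and 101 CPM (log2 fold change -1.01, standard error 0.19, edgeR adjusted p = 1.31e-05). Eif3g fell from 566, 595 and 652 CPM to 373, 312 and 368 CPM (log2 fold change -0.70, standard error 0.13, adjusted p = 7.56e-06). Neither gene's groups overlapped. Eif3m, Eif3l and Eif3k were also lower (-0.66, -0.53 and -0.35, adjusted p = 0.00506, 0.0167 and 0.0118). Of these, the call of Eif3m was lost without P/D replicate 1 (adjusted p = 0.0563) and that of Eif3l without P/D replicate 3 (0.08) or RS replicate 2 (0.0785). Eif3j1, a loosely bound subunit, was higher (0.86, adjusted p = 0.0292), but not without P/D replicate 2 (0.44, 0.295), RS replicate 2 (0.102) or RS replicate 3 (0.0908). Eif3b, the RNA-recognition subunit, was higher by 0.37 (adjusted p = 0.02), and the call was lost without P/D replicate 1 (0.0553), P/D replicate 3 (0.131), RS replicate 1 (0.0681) or RS replicate 3 (0.0809). Eif3c, Eif3d, Eif3e, Eif3f and Eif3h were not called, with log2 fold changes between -0.25 and 0.21, except that Eif3e was called lower without RS replicate 2 (adjusted p = 0.0231).

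The group taken as eIF4F also counted the paralogues Eif4e2 and Eif4g2, described below. Its 7 genes varied widely, with 4 called longer, beside 55% of all genes tested, and a median gain of 26.7 nt. On average 34.8% of their P/D reads and 65.7% of their RS reads had tails of 120 to 210 nt. Neither gene of the RNA helicase eIF4A was called for tails, and both fell in accumulation. Eif4a1 (chromosome 11, 69666936 to 69672317, reverse strand) had tails of 121, 127 and 122 nt in P/D spermatocytes and 111, 108 and 145 nt in RS, and the RS samples lay on both sides of the P/D range (-1.76 nt, standard error 10.6, limma adjusted p = 0.901). Its share of tails of 120 to 210 nt was 44.4%, 41.2% and 37.8% in P/D spermatocytes against 33.3%, 28.0% and 28.6% in RS. The difference was -11.2 points, without overlap (two-sided exact permutation p = 0.1), and of the 30 genes with at least 20 reads in every sample this was the one with a lower mean share in RS. Eif4a2 (chromosome 16, 23107444 to 23113947, forward strand) had tails of 161, 164 and 156 nt in P/D spermatocytes and 168, 151 and 142 nt in RS (-6.76 nt, standard error 7.9, adjusted p = 0.504). Its P/D means already lay between 120 and 210 nt. Eif4a2 had 45, 49 and 56 reads in P/D spermatocytes and 13, 20 and 6 in RS, so its RS tail means rest on few reads. Eif4a2 fell from 184, 160.2 and 206 CPM to 41.1, 42.1 and 16.9 CPM (log2 fold change -2.32, standard error 0.26, edgeR adjusted p = 5.3e-10). Eif4a1 fell from 148, 111 and 166 CPM to 66.3, 52.7 and 59.0 CPM (log2 fold change -1.16, standard error 0.24, adjusted p = 5.73e-05). Eif4a2 gave 55.6%, 59.0% and 55.4% of the reads of the pair in P/D spermatocytes and 38.2%, 44.4% and 22.2% in RS, without overlap (exact permutation p = 0.1, adjusted 0.122). Eif4a3, an eIF4A that serves in the exon junction complex and not in eIF4F, was not called for tails either, with 108, 95.4 and 107 nt against 115, 119 and 109 nt (10.5 nt, adjusted p = 0.185), although its RS samples lay just above its P/D samples. It had a log2 fold change of -0.67 (adjusted p = 0.00726).

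Of the cap-binding genes, Eif4e2, which encodes the 4E-homologous protein that can repress translation, gained far more tail than Eif4e. The Eif4e2 tails went from 106, 99.9 and 101 nt to 171, 169 and 170.0 nt (67.8 nt, standard error 4.71, limma adjusted p = 0.000248), and those of Eif4e from 117, 98.4 and 93.9 nt to 125, 128 and 143 nt (28.8 nt, standard error 8.54, adjusted p = 0.0284). The 2 genes differed by -11.2, 1.46 and 7.14 nt (Eif4e2 minus Eif4e) in P/D spermatocytes and by 46.9, 40.2 and 27.1 nt in RS, with no overlap (exact permutation p = 0.1, adjusted 0.122). The Eif4e call was lost without P/D replicate 2 (0.0703), P/D replicate 3 (0.0714), RS replicate 2 (0.0558) or RS replicate 3 (0.0823). Neither gene was called for accumulation, with log2 fold changes of 0.0029 for Eif4e and -0.0032 for Eif4e2 (standard errors 0.20 and 0.19). Eif4ebp2, the gene of a 4E-binding repressor, had 17, 19 and 16 reads in P/D spermatocytes and 3, 7 and 2 in RS (log2 fold change -2.46, standard error 0.39, edgeR adjusted p = 6.72e-07). Its tails were not called (28.1 nt, adjusted p = 0.179) except without RS replicate 2 (44.4 nt, 0.0177).

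The scaffold genes differed too. Eif4g2, which encodes a scaffold without the eIF4E site that is used in cap-independent initiation, had tails of 135, 134 and 137 nt in P/D spermatocytes and 192, 193 and 199.6 nt in RS. These were the longest RS tails among the tested genes (gain 59.7 nt, standard error 4.89, limma adjusted p = 0.000262). Eif4g3 gained 26.7 nt (standard error 6.73, adjusted p = 0.0155, and 0.0538 without RS replicate 1), so that its tails minus those of Eif4g2 went from 6.30, 4.71 and -3.63 nt to -25.0, -39.7 and -27.1 nt (exact permutation p = 0.1, adjusted 0.122). Eif4g1, the canonical scaffold, had 1, 2 and 4 reads in P/D spermatocytes and 15, 17 and 12 in RS (log2 fold change 2.22, standard error 0.47, edgeR adjusted p = 7.06e-05). The P/D tail means of Eif4g1 rest on these few reads (-28.9 nt, adjusted p = 0.728, and 48.1 nt with 0.0285 without P/D replicate 1, where 1 read of 361 nt set the mean). Eif4g3 was higher by 0.39 (adjusted p = 0.0279), a call lost without any of the P/D samples (0.0616, 0.077 and 0.0795) or RS replicate 3 (0.179). Eif4g2 was not called (0.13, adjusted p = 0.375). Of the helicase cofactors, Eif4b had 6, 9 and 7 reads in P/D spermatocytes and 22, 37 and 37 in RS (log2 fold change 1.73, standard error 0.32, adjusted p = 1.15e-05), with tails 54.8 nt longer (adjusted p = 0.00128). Eif4h, which stimulates the same helicase, was lower (-0.59, adjusted p = 0.00621) with tails 51.3 nt longer (adjusted p = 0.000842).

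**Figure D3:**
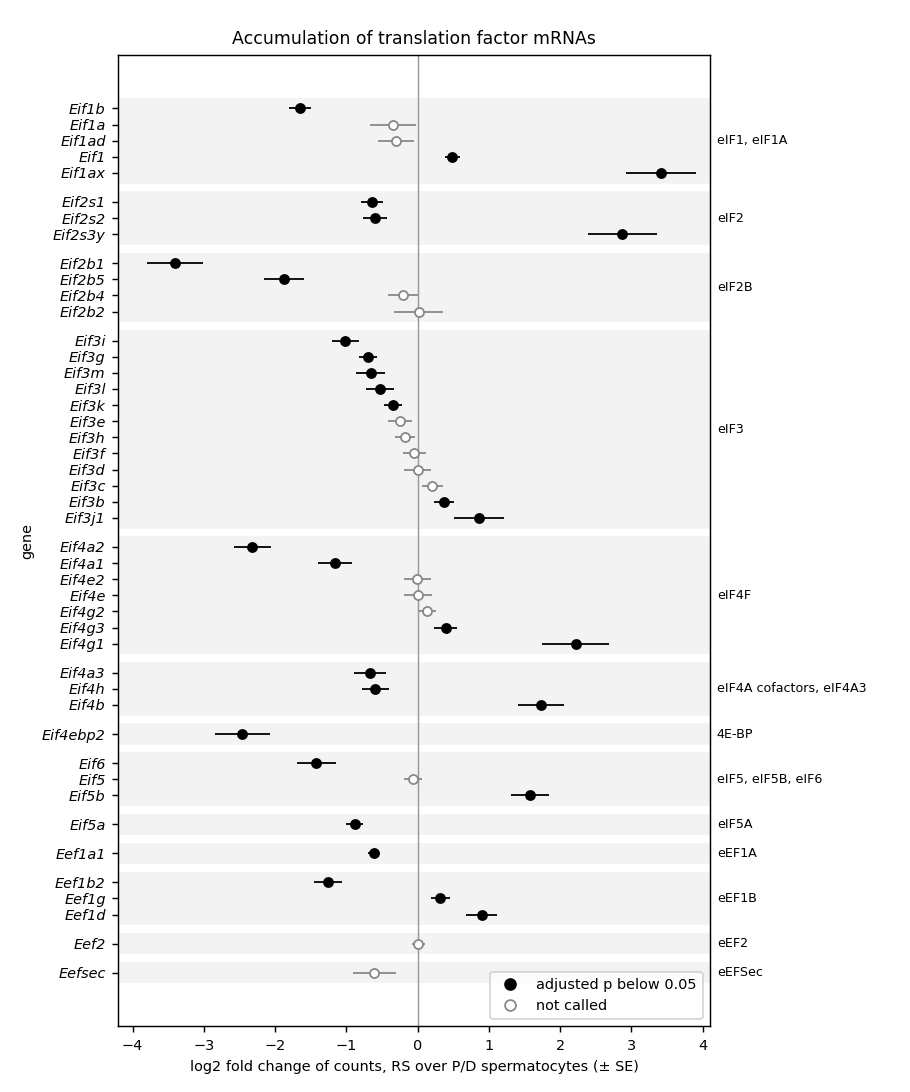
Log2 fold change of TMM-normalized counts, RS over P/D spermatocytes, for the 45 factor genes with a count test, grouped by complex, with bars of 1 standard error. Filled circles passed an adjusted p of 0.05, and members of eIF1 and eIF1A, eIF3, eIF4F and eEF1B lie on both sides of 0.

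The factors that act when the ribosomal subunits join were split. Eif5b, the GTPase of subunit joining, had 10, 15 and 13 reads in P/D spermatocytes and 30, 66 and 53 in RS, without overlap on the CPM scale (log2 fold change 1.58, standard error 0.26, edgeR adjusted p = 1.91e-06). Its tails of 168, 129 and 133.5 nt against 175, 164 and 174 nt overlapped (27.2 nt, limma adjusted p = 0.0878, and 39.5 nt with 0.00401 without P/D replicate 1). Eif6, which keeps the subunits apart and acts in making the large one, fell from 111, 127 and 99.5 CPM to 44.2, 42.1 and 30.9 CPM (log2 fold change -1.42, standard error 0.27, adjusted p = 1.49e-05). Its tail gain of 27.4 nt was called (limma adjusted p = 0.0447), and the adjusted p was 0.0581, 0.0675, 0.0866, 0.121 and 0.0859 without P/D replicate 2, P/D replicate 3, RS replicate 1, RS replicate 2 and RS replicate 3. Eif5, the activator of eIF2's GTPase, had long tails in both cell types, from 146, 144 and 146 nt to 186, 184 and 181 nt (38.2 nt, standard error 4.59, adjusted p = 0.000754), with no call in accumulation (-0.06, adjusted p = 0.67). Eif5a, whose hypusine-modified protein helps the ribosome through difficult peptide bonds, went from 121, 128 and 126 nt to 159.6, 159 and 157 nt (33.2 nt, adjusted p = 0.00153). It fell from 1012, 863 and 1032 CPM to 625, 417 and 441 CPM (log2 fold change -0.89, standard error 0.12, adjusted p = 6.21e-08). Reads of this gene were spread over 8 similar contigs, of which ENSMUST00000108610 held the most, with tails of 114, 132 and 125 nt against 153, 140.3 and 143 nt. That contig's gain of 21.2 nt was at the threshold (adjusted p = 0.0471). Without 1 sample it stayed under 0.05 only when P/D replicate 2 was left out, and otherwise had adjusted p between 0.0664 and 0.141. The paralogue Eif5a2 had 3, 2 and 2 reads against 6, 13 and 8.

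Elongation factor mRNAs shared long RS tails and diverged in accumulation. Eef1a1 (chromosome 9, 78478449 to 78481724, reverse strand, 8 exons) had 679, 975 and 829 reads in P/D spermatocytes and 565, 930 and 634 in RS, which was 19.0%, 21.7% and 20.6% of factor reads and then 15.3%, 17.1% and 15.6%. Scaled to depth this was 2783, 3187 and 3055 CPM against 1784, 1959 and 1781 CPM, and the groups did not overlap (log2 fold change -0.61, standard error 0.08, edgeR adjusted p = 4.33e-08). Its tails went from 101, 96.0 and 95.8 nt to 162, 165 and 169 nt, a gain of 67.7 nt (standard error 4.98, limma adjusted p = 0.000248). Eef2, the translocase (chromosome 10, 81176631 to 81182498, forward strand, 14 exons), had 311, 377 and 323 reads and 385, 527 and 409 reads, and its log2 fold change of 0.01 was not called (standard error 0.09, adjusted p = 0.945). Its tails rose all the same, from 109.5, 112 and 107 nt to 163, 160.0 and 164 nt (52.9 nt, standard error 4.68, adjusted p = 0.000297).

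The 3 genes of eEF1B, which recharges eEF1A with GTP, all had longer tails in RS, beside 55% of all genes tested, and their counts went different ways. Eef1b2, the alpha subunit and a nucleotide exchanger, fell from 217, 304 and 217 CPM to 111, 101 and 78.6 CPM (log2 fold change -1.26, standard error 0.20, edgeR adjusted p = 5.36e-07). Eef1d, the delta subunit and also an exchanger, had 25, 35 and 25 reads and then 37, 93 and 78 reads (log2 fold change 0.90, standard error 0.22, adjusted p = 0.000489). Joined with a contig of the same gene that has no symbol in the deposited table, Eef1d had 34, 44 and 29 P/D reads. In RS it had 101, 163 and 143 reads (log2 fold change 1.51, adjusted p = 5.71e-11). The member contig of Eef1d with most reads, ENSMUST00000154584, was not called (log2 fold change -0.31, edgeR adjusted p = 0.3). It had 19, 27 and 22 reads and then 21, 30 and 23. The 5 member contigs at the earliest annotated 3′ end together had 3, 8 and 2 reads and then 14, 60 and 47. ENSMUST00000109972 had 3, 0 and 1 and then 2, 3 and 8. The structural gamma subunit Eef1g was higher by 0.32 (adjusted p = 0.035), which was lost without P/D replicate 1 (0.101), P/D replicate 3 (0.163), RS replicate 1 (0.107) or RS replicate 3 (0.111). Their tail gains were 56.8, 72.5 and 51.6 nt (limma adjusted p = 0.000574, 0.0025 and 0.000673). Eefsec, the elongation factor for selenocysteine, gained 65.6 nt (adjusted p = 0.00074) and was not called for accumulation (-0.61, adjusted p = 0.0757), except without P/D replicate 1 (-0.75, 0.0485) or RS replicate 3 (-0.83, 0.0327).

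The members listed as TOP mRNAs (Eef1a1, Eef1b2, Eef1d, Eef1g, Eef2, Eif3e, Eif3f, Eif3h and Eif4b) were all called longer in RS, 9 of 9, with a median gain of 54.8 nt. Of the 37 other tested genes 26 were longer, with a median of 51.3 nt. Among all 5380 genes tested, 55% were longer. The others that were not called include Eif1ax, Eif2s3y and Eif4g1, with between 1 and 4 reads in each P/D sample, so the counts also depend on read numbers. In accumulation, 3 TOP genes were higher, 2 lower and 4 not called, against 8, 17 and 11 of the 36 others. Of all 4946 genes tested, 34.7% were higher and 31.2% lower. Over the 45 genes with both tests, the tail difference and the log2 fold change of counts showed no clear relation (Pearson's r = -0.04, Spearman's rho = 0.04, across genes that share the same 6 samples, as a description). Of the 35 genes with longer tails, 7 were higher, 14 lower and 14 not called in accumulation. Of the other 10, 4 were higher, 5 lower and 1 not called.

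**Figure D4:**
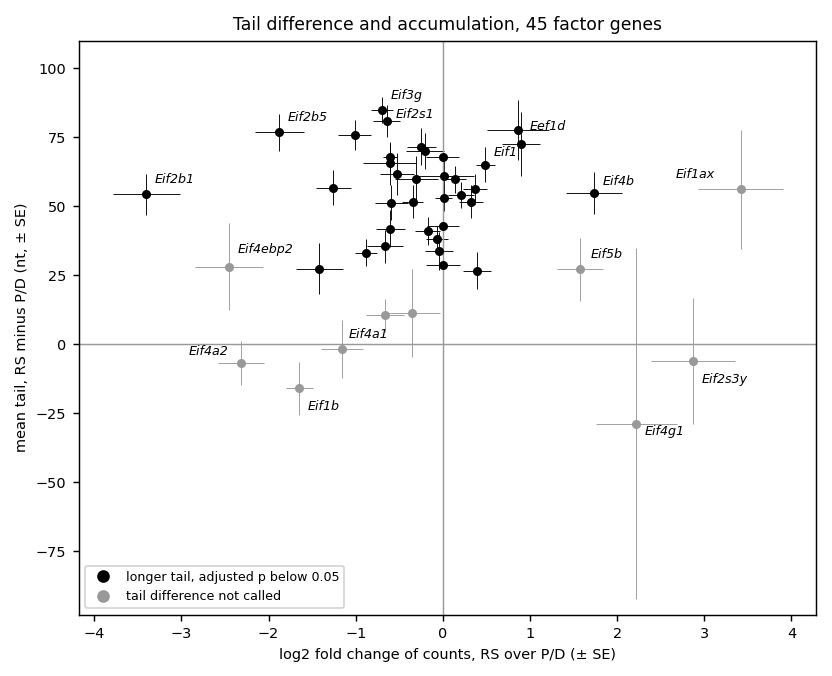
Difference of mean tails (RS minus P/D, in nt) against the log2 fold change of counts (RS over P/D) for 45 factor genes, with bars of 1 standard error on both axes and black points for tails called longer. Tails called longer occur from Eif2b1 at a log2 fold change of -3.40 to Eif4b at 1.73, Eif1ax lies at 3.42 with a gain of 56.2 nt that was not called, and Eif4a1, Eif4a2 and Eif1b lie near 0 nt with lower counts.

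Some genes also changed which transcript was read. Of the 7 factor genes with at least 2 contigs in the test of transcript usage, 2 changed (edgeR diffSpliceDGE, Simes p over contigs, Benjamini-Hochberg adjusted p below 0.05), where 11.5% of all 1047 genes did. In Eif5 (adjusted p = 0.0053), contig ENSMUST00000050993 gave 7.14%, 5.96% and 5.13% of the gene's reads in P/D spermatocytes and 15.8%, 15.6% and 17.6% in RS. Its annotated 3′ end lies upstream of that of ENSMUST00000166123, the contig with most reads, which gave 71.4%, 70.2% and 79.5% and then 67.7%, 52.3% and 59.7%. In Eif4g3 (adjusted p = 0.0479), the short coding contig ENSMUST00000105830 of 13 exons gave 7.02%, 2.86% and 13.1% and then 17.9%, 19.2% and 28.9%, while its tails went from 69.2, 114 and 76.0 nt to 165, 159 and 174 nt (79.8 nt, limma adjusted p = 0.00262). The long Eif4g3 contigs ENSMUST00000105831 (36 exons) and ENSMUST00000140796 (22 exons) gained 2.84 and 3.64 nt (adjusted p = 0.768 and 0.873). Reads at the end of ENSMUST00000105831, with the contig that shares it, had mean tails of 150, 139 and 140 nt in P/D spermatocytes. In RS they had 163, 147 and 177 nt. At the end of ENSMUST00000140796, with the contigs that share it, the means were 160, 144 and 160 nt in P/D spermatocytes. In RS they were 173, 155 and 171 nt, and the groups overlapped at both ends. In Eif4g2 the contig with the earlier end, ENSMUST00000161051, gave 16.0%, 16.0% and 13.5% and then 16.4%, 31.4% and 27.8%, and the usage test missed the threshold (adjusted p = 0.0672). That contig itself was higher (log2 fold change 0.87, edgeR adjusted p = 0.00452, and 0.0518 without RS replicate 2), and the later one was not called (log2 fold change -0.12). The Eif5 usage call was lost without P/D replicate 3 (0.0512), and the Eif4g3 call without P/D replicate 1 (0.228), P/D replicate 2 (0.481) or RS replicate 3 (0.200). Eif4g2 was called without RS replicate 1 (0.00858). Eef1d did not enter the usage test over all samples, and it entered and was called without P/D replicate 1 (0.000713), P/D replicate 2 (0.0018), P/D replicate 3 (0.000868) or RS replicate 1 (4.98e-06). In Eef1d, ENSMUST00000154584 gave a smaller part of the gene's member reads in every RS sample than in any P/D sample. Eef1g was called without RS replicate 1 (0.0247). In Eif4e2 and Eif4h, also with several annotated ends, usage was not called (adjusted p = 0.999 and 0.632).

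The last 30 bases of these contigs in GENCODE vM21 (GRCm38) show what the alternative ends look like, in lower case with the hexamer AATAAA or ATTAAA in capitals where it lies within them, and are given 5′ to 3′ on the strand of the gene. The hexamer directs cleavage and polyadenylation, and it lies a little upstream of the place where the tail is added.
Eif5 ENSMUST00000050993, earlier end, chr12:111544894-111544923, forward strand: ataaaaAATAAAgatttgattttggtcatt
Eif5 ENSMUST00000166123, last end, chr12:111546723-111546752, forward strand: atgcatgaaaacatgttggtaatttcattg
Eif4g3 ENSMUST00000105830, earlier end, chr4:138127405-138127434, forward strand: ctttttttataaATTAAAaaaatttaagat
Eif4g3 ENSMUST00000105831, long contig, chr4:138207050-138207079, forward strand: tgcaagtttaaAATAAAgacttctcctttt
Eif4g2 ENSMUST00000161051, earlier end, chr7:111071932-111071961, reverse strand: gtatctatcAATAAAcattgtgatacttga
Eif4g2 ENSMUST00000162415, later end, chr7:111067750-111067779, reverse strand: atggctgtagtcctctgtggtggtgtcctt
All 3 earlier ends shown hold one of the hexamers in these letters, and 2 of the 3 later ends shown hold neither. Other annotated ends of these genes are not shown and differ. The still earlier ENSMUST00000221648 of Eif5 and ENSMUST00000139759 of Eif4g3 hold neither, and the still earlier ENSMUST00000058133 of Eif4g3 holds AATAAA. The contigs at the last Eif4g3 end, which together had 218 reads, hold neither.

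The ends of 3 transcripts with longer tails in RS and of 3 not called for tails, the main transcripts of genes described above, are shown in the same way.
Eif1 ENSMUST00000049385, gain of 65.0 nt, chr11:100322067-100322096, forward strand: cttatttaAATAAAgcttgttttcagaaac
Eif1b ENSMUST00000007139, not called, chr9:120495301-120495330, forward strand: agtgtgcatcctttatgagcgctgacctaa
Eif4a1 ENSMUST00000163666, not called, chr11:69666936-69666965, reverse strand: attctgAATAAAattacttggaaactgcct
Eif4a2 ENSMUST00000023599, not called, chr16:23113918-23113947, forward strand: aatgttaAATAAAattgtatattcacttta
Eif3g ENSMUST00000004206, gain of 84.8 nt, chr9:20894349-20894378, reverse strand: gaaagcttcagtaaacagactccaaatgca
Eef1a1 ENSMUST00000042235, gain of 67.7 nt, chr9:78478449-78478478, reverse strand: accATTAAAacaagtttaatgagaaatctg
Of the 3 longer ones, Eif1 has AATAAA, Eef1a1 has ATTAAA and Eif3g has neither in these letters, and of the 3 not called, Eif4a1 and Eif4a2 have AATAAA and Eif1b has neither. Searched on the gene's strand in the last 40 bases, and counting ATTAAA only where AATAAA was missing, AATAAA was found in 53 of the 108 members (49.1%) and ATTAAA in 26 (24.1%), against 59.3% and 14.4% of the 11344 annotated transcripts with a sequence. An annotated end need not be the cleavage site used in these cells.

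**Figure D5:**
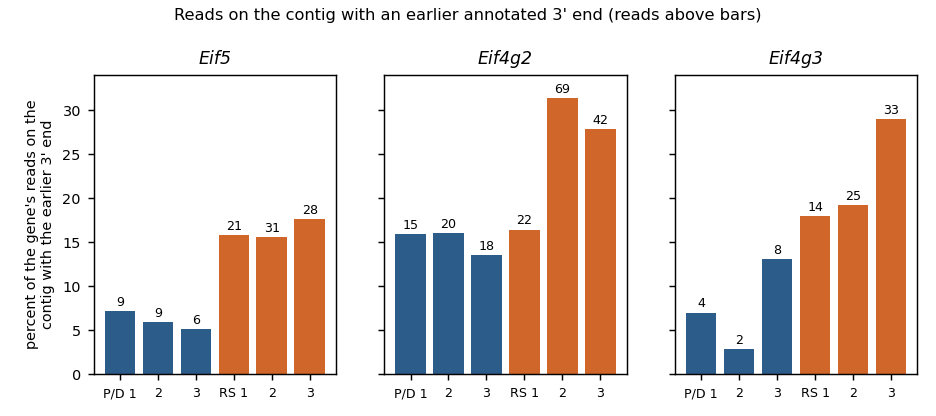
Percentage of the gene's reads in each sample on a contig with an earlier annotated 3′ end than the gene's contig with most reads. The number of reads on that contig stands above each bar, for ENSMUST00000050993 of Eif5, ENSMUST00000161051 of Eif4g2 and ENSMUST00000105830 of Eif4g3. Eif5 and Eif4g3 also have still earlier ends, not drawn. In Eif4g3, ENSMUST00000058133 gave 7.02%, 7.14% and 8.2% in P/D spermatocytes and 7.69%, 5.38% and 0.877% in RS. ENSMUST00000139759 gave 1.75%, 4.29% and 8.2% and then 3.85%, 2.31% and 1.75%. The 3 RS bars stand above all P/D bars in each gene, by least for RS replicate 1 of Eif4g2 (16.4% against 16.0%).

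Genes that work with these factors but carry other names were followed through lists of 46 genes, of which 25 were found and 21 had a tail test. Of these 17 were longer in RS and 0 shorter, with a median gain of 57.5 nt, and of 18 with a count test 4 were higher and 4 lower. Over all genes tested, 55% were longer and 2.14% shorter, and 34.7% were higher and 31.2% lower. Among scanning partners, 7 of 7 tested genes had longer tails, such as Pdcd4, an inhibitor of eIF4A, with 57.5 nt (limma adjusted p = 0.00375) and a log2 fold change of 0.62 (edgeR adjusted p = 0.00822). Etf1, the release factor that reads stop codons, was higher (log2 fold change 2.29, edgeR adjusted p = 4.46e-10) with tails 57.8 nt longer (limma adjusted p = 0.000672), while the tails of its partner Gspt1 were not called (-26.7 nt, adjusted p = 0.122). Mtif3 and Tufm, an initiation and an elongation factor of mitochondria, were lower (log2 fold changes -2.005 and -0.71, edgeR adjusted p = 0.000112 and 0.0264) with tails 84.5 and 69.8 nt longer (limma adjusted p = 0.000248 and 0.00031), and the tails of Gfm1, another mitochondrial elongation factor, were not called (-5.29 nt, adjusted p = 0.811). In RS, Mtif3 had 6, 1 and 5 reads and Gfm1 had 2, 8 and 3, so their RS tail means rest on few reads.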

How the data were processed

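Direct RNA reads came from 3 P/D and 3 RS samples of pooled mouse testis mRNA. The authors basecalled and demultiplexed them, aligned them to GENCODE transcripts of GRCm38 (mm10) with minimap2 (2.20-r1061 in the submitters' processing notes), kept 1 tail estimate in nt per read and deposited raw read counts per contig and the tail of each read. Estimated tails carry the error of the estimator. Each read stands for 1 molecule whatever its length, so reads of paralogues were compared without scaling to length. Samples held between 244004 and 474688 reads, and this number limits the precision for genes with few reads. A read on more than 1 contig counted on each, which concerned 126 of 25292 member reads. All 108 members were found in GENCODE vM21, from which coordinates and sequences were taken.

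Mean tails per sample were tested with limma 3.58.1 in R 4.3.3 where at least 10 reads were present in 2 replicates of a cell type and both cell types had 2 means. Counts were tested with edgeR 4.0.16 (TMM, filterByExpr, quasi-likelihood) and transcript usage with diffSpliceDGE. Fits covered all transcripts or genes, with Benjamini-Hochberg adjustment over all and a threshold of 0.05. CPM were scaled to all reads of the sample, without TMM. Single values had two-sided exact permutation tests (scipy 1.17.1). The scripts were tested on simulated data. Values in every sample are given for the transcripts or genes each complex turns on, the 5 highest and 5 lowest fold changes and tail differences, and listed paralogues. A member gene sums the contigs that share a deposited symbol. Any other gene sums the contigs of a GENCODE gene, or of a symbol where GENCODE vM21 lacked the contig. Members and lists were chosen with earlier results of these data known. Each sample is a pool, and p-values measure only the spread between these samples. The alternatives tried were DESeq2 1.42.0, other normalizations, filters and tail summaries, the methods' t-test, a replicate block and leaving out each sample.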

Additional observations from a re-analysis of the deposited data

Results flagged for a closer look

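A pair of contigs lies outside the members because the deposited table gives them no symbol, while GENCODE places them in factor genes. In the fits over all genes they were kept apart from the member genes. ENSMUST00000109975 of Eef1d (GRCm38 chromosome 15, 75894800 to 75909340, 9 exons, 2842 nt) held 221 reads, 9, 9 and 4 in P/D spermatocytes and 64, 70 and 65 in RS. Its mean tails were 124, 190.1 and 156 nt and then 163, 164 and 172 nt, and the groups overlapped. ENSMUST00000166171 of Eif2s2 (chromosome 2, 154871418 to 154892782, 10 exons) held 114 reads, 6, 17 and 16 and then 19, 33 and 23. Its tails were 96.6, 96.3 and 84.4 nt in P/D spermatocytes and 132, 146 and 127 nt in RS, without overlap. Joining contigs by GENCODE gene, an alternative chosen after seeing the data, left 35 genes longer, 10 higher and 19 lower in RS.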

How the results depend on the processing

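Leaving out 1 sample turned the sign of the tail difference of 4 genes not called in all samples, namely Eif4g1 (48.1 nt without P/D replicate 1, adjusted p = 0.0285), Eif2s3y (18.4 nt without P/D replicate 2 and 5.67 nt without RS replicate 2), Eif4a1 (up to 4.79 nt, without RS replicate 2) and Eif1a (-1.53 nt without RS replicate 3). Log2 fold changes near 0 that were not called (Eef2, Eif2b2, Eif3d, Eif3f, Eif4e and Eif4e2) also turned. No gene called in all samples turned its sign with 1 sample left out, or in counts under the block. The tail differences of called genes cannot change under the block, by arithmetic. Among the summaries and the transcripts with the largest and smallest changes, 376 recomputed values kept their side of the threshold or their size, 15 moved and 12 missed the threshold. The 376 include the block values of the shares of reads, which could not change. Longer transcripts numbered 51, and 24 with at least 20 reads in every sample, where 26 were tested. Shorter transcripts numbered 0, and 1 (Eif1a ENSMUST00000078079) with the median tail, with tails of 10 to 300 nt and without RS replicate 2 (0 to 1 with 1 sample left out). Higher transcripts numbered 9, 19 with no count filter, which moved the median of all transcripts to a log2 fold change of 0.17 from -0.03, and 5 where each sample had to hold 10 counts, with 39 members tested in place of 62. Genes higher numbered 7 to 10 with 1 sample left out, against 11. Genes with changed usage numbered 2, 0 where each sample had to hold 10 counts, a setting in which Eif5 and Eif4g3 were not tested, and 1 to 5 with 1 sample left out. The rise in tails of 120 to 210 nt was 42.3 points, and 27.2 for 120 to 180 nt, 47.7 with no upper bound, 36.5 with transcripts weighted equally, 40.5 without Eef1a1 and 41.4 to 42.8 with 1 sample left out. The difference of the factors' share of reads was -0.204 points without Eef1a1. The causes were not tested. DESeq2 called 8 transcripts higher and 20 lower. The calls of Eif5a ENSMUST00000108610, Eif4e ENSMUST00000029803 and Eif4g2 ENSMUST00000161051 were lost in 12 cases in all. Few reads limit Eif1ax, Eif2s3y, Eif4g1 and Eif2b1 most.

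Same-numbered samples share a number, and all cell types came from the same mice, but that same-numbered pools hold the same mice is not stated. Their deviations from the group means correlated at -0.0106, 0.0771 and 0.0157 for tails and 0.0278, 0.237 and 0.0691 for log2 CPM (1827 transcripts), so the pairing was not taken as given. With the replicate block, 50 transcripts were longer, 0 shorter, 10 higher and 25 lower, 34 genes were longer, 11 higher and 19 lower, and 2 changed usage. The block lost the tail calls of the genes Eif4e (adjusted p = 0.076) and Eif6 (0.0949) and gained that of Eif1ax (0.0318). The means over same-numbered differences equal the differences of the group means (42.3 and -0.321 points) by arithmetic, so they test nothing about the pairing.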
